A study of Homo sapiens with 22 samples.

Results

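The peaks of MTBP on chromatin in DLD-1 cells were described here by the strength of the signal of the full-length protein. DLD-1 is an established human colorectal adenocarcinoma cell line. All peaks of the authors' MTBP list on chromosomes 1 to 22 and X were taken, which gave 29848 of the 29858 peaks in the list, the other 10 being on Y. Of the 29848, 28971 have names that begin with WT and 877 have names that begin with deltaC, a C-terminally truncated form. All 29848 were ranked by the value the authors deposited for the full-length protein, called WT signal here. In the cells that gave this value, 1 form of the MTBP gene carried the auxin-inducible degron mAID and another carried full-length MTBP with a FLAG epitope (MTBP-mAID/MTBP-WT-FLAG, 3 libraries). The control cells had no FLAG tag (MTBP-mAID/MTBP-mAID, 3 libraries), so both groups share the degron-tagged form. The binding assay was CUT&RUN, in which an antibody, here to FLAG, brings a nuclease to its target and the released DNA is sequenced. The dimethylated histone H3 lysine 4 (H3K4me2) profile came from the same method in 2 libraries of MTBP-mAID/MTBP-WT-FLAG cells, beside 2 libraries with IgG. Whether auxin was given, and how many clones the lines represent, is not given in the sources used here. The scale of the WT signal and the way the untagged libraries entered it are not stated either, and the untagged signal itself was not analysed here. There is 1 value per peak and no value per library, so no difference was tested between replicates. The intervals printed are 95% Wilson intervals over peaks and cover counting error only, and library depth is unknown.

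MTBP works as the partner of Treslin, encoded by TICRR. The complex acts after the licensing of replication origins, when it helps bring CDC45 and the GINS complex to the loaded MCM helicase, a step that depends on cyclin-dependent kinase. H3K4me2 marks promoters and enhancers, which lie in open chromatin, and human origins have no strict consensus sequence.

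The bases just upstream of 8 start sites show promoters at the ends of the range, taken from protein-coding starts with an MTBP summit in the 250 bp upstream of them. PAIP2B (chr2:71227104-71227353, minus strand), DMAC2 (chr19:41439538-41439787, minus strand) and MYL11 (chr16:30370684-30370933, plus strand) had the highest WT signal per kb. PDIA5 (chr3:123066775-123067024, plus strand) and KIF23 (chr15:69414099-69414348, plus strand) had the lowest per kb. ALCAM (chr3:105366659-105366908, plus strand), MXD1 (chr2:69914859-69915108, plus strand) and UGP2 (chr2:63841646-63841895, plus strand) had the highest WT signal per peak. The 250 bases before each start are printed 5′ to 3′ on the gene's own strand, from RefSeq, build GRCh38.p14, and capitals mark CCAAT on that strand, or its complement ATTGG. The genes were chosen after their values were seen.
PAIP2B: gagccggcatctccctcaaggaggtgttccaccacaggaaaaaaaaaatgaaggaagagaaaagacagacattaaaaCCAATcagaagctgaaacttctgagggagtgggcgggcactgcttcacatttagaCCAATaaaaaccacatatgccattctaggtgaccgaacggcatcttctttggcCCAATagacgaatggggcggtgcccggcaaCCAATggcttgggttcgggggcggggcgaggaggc
DMAC2: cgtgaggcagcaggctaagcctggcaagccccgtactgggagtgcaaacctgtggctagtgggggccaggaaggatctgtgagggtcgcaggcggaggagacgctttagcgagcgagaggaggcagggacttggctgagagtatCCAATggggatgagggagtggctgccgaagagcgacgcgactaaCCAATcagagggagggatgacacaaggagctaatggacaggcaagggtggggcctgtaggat
MYL11: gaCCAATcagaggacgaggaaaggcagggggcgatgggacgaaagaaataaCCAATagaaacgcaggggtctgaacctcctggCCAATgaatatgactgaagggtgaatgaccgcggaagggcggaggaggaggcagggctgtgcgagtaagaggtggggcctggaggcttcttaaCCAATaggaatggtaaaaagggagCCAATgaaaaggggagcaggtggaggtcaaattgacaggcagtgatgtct
PDIA5: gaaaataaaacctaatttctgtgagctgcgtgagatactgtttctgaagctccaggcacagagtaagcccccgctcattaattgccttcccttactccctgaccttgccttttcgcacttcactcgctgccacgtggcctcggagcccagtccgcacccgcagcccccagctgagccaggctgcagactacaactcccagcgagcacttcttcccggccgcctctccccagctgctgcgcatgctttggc
KIF23: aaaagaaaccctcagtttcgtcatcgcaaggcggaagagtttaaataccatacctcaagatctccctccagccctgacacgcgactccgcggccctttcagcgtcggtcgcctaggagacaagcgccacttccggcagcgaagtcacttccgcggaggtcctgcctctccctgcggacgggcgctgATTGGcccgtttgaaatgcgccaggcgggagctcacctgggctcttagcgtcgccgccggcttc
ALCAM: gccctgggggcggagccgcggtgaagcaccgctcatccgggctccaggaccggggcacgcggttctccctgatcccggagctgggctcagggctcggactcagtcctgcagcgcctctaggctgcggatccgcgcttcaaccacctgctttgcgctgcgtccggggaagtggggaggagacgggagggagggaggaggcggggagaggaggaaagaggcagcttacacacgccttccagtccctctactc
MXD1: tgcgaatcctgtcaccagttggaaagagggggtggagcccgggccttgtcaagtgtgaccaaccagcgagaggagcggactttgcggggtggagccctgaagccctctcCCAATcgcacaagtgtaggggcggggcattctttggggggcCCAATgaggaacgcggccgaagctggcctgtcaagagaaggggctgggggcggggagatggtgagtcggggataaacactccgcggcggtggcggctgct
UGP2: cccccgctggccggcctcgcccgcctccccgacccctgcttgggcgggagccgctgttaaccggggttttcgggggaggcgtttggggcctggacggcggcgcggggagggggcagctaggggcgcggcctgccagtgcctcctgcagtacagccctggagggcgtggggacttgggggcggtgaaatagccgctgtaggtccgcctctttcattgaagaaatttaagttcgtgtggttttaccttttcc
On either strand, the motif occurred 4 times in the PAIP2B stretch, 2 times in that of DMAC2 and 5 times in that of MYL11. It occurred 0 times in PDIA5 and 1 time in KIF23. WT signal per kb was 1164 at PAIP2B, 1120.3 at DMAC2 and 1044 at MYL11, against 106 at PDIA5 and 112 at KIF23. By WT signal per peak the highest starts differed among themselves, since MXD1 (1739) had 2, while ALCAM (1953) and UGP2 (1708) had 0. The share of all promoters with this motif is given further on.

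WT signal per peak ranged from 0 to 3567, with a median of 371 and quartiles of 258 and 554. The 90th percentile, 789, was 4.20 times the 10th, 188. The strongest 10% of peaks held 23.7% of the summed signal and the weakest 50% held 28.6%. Signal was thus spread over the list rather than gathered in a few sites. Much of the spread went with how wide a peak was: width ran from 233 to 7128 bp with a median of 937 bp, and across the 29848 peaks Spearman's rho between WT signal and width was 0.75. Both are read from the same peak interval of the same libraries, so this correlation is a description. For this reason each comparison is also given per kb, as WT signal divided by peak width. The median per kb was 396, the 90th percentile was 2.51 times the 10th, and rho between signal per kb and width was -0.05.

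The strongest peak lay in an intron of TTC7A (chr2:47031878-47038435, hg38), with a WT signal of 3567 over 6557 bp and an enhancer label. The next were the promoters of CYP1B1, a cytochrome P450 enzyme (chr2:38075830-38078459, 3161), and PPM1B, a protein phosphatase (chr2:44167423-44170108, 3116). A distal enhancer 80.4 kb from B3GNT2 (2992) and an unclassed peak 1.18 kb from an end of SLC14A2, a urea transporter (2769), followed. Further down were an intron of SPTBN1, a spectrin (2765), a CpG-rich promoter at QTGAL (2637) and an enhancer 30.6 kb from TH (2603). An intron of TBCD, a tubulin cofactor (2583), and a peak in KRT8, a keratin of simple epithelia (2556), came next. The KRT8 peak lay in the first intron of a form of the gene. It had a promoter label, 115 bp from a start by the authors' distance. The remaining 10 of the strongest 20 included peaks 18.0 kb from PELI1 (2499), 65.3 kb from GINS2 (2431) and 33.7 kb from RMDN2 (2385). Enhancers lay 51.3 and 71.1 kb from ERRFI1, an inhibitor of EGF receptor signalling (2397 and 2312). Further peaks lay in an exon of METRNL (2335) and 54.7 kb from KDM7A, a histone demethylase (2302). The last were 144.6 kb from CDKN3 (2275), in an intron of PCBP1-AS1, 0.472 kb from ASPRV1 (2241), and 89.8 kb from ZC3H11B (2168). GINS2 encodes a subunit of the helicase complex named above. The strong peak had a promoter label and lay 266 bp from a start by the authors' distance, but 65.3 kb from the gene. The peak within 1 kb of an end of the gene had a WT signal of 331.

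Of the strongest 20, 8 were enhancer, 7 promoter and 5 others, and 14 were wider than 3 kb. Per kb they ran from 347 to 1333, so some of them were below the median per kb. By signal per kb the order was different: the first was a narrow peak of 501 bp in an intron of UST, at 1503 per kb with a WT signal of 753. The next were a peak 296 kb from VPS13C (1387 per kb), an enhancer in an intron of LINC02613 (1371 per kb), the SLC14A2 peak (1333 per kb) and a peak 14.6 kb from DYM (1316 per kb). The 298 strongest peaks per peak had a median width of 2536 bp and were 37.9% enhancer. The 298 strongest per kb had a median width of 926.5 bp and were 20.5% enhancer and 57.0% others. Over all 29848 peaks the shares were 17.6% enhancer, 34.7% promoter and 47.7% others, so the enhancer share per kb was near that of all peaks. Of all peaks, 274 were wider than 3 kb.

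Chromosome 2 stood out among the strongest peaks. It held 9.03% of all peaks but 22.8% of the strongest 1% by WT signal and 16.4% of the strongest 1% per kb. All 8 of its peaks in the strongest 20 lay between 36000000 and 72000000 bp. This stretch, which also holds the printed starts of PAIP2B, MXD1 and UGP2, was bounded after its peaks were seen. Its 743 peaks had a median WT signal of 479.7 against 369 elsewhere, a median width of 1215 against 932 bp, and a median per kb of 392 against 396. The stretch held 2.49% of all peaks, 16.8% of the strongest 1% by WT signal and 8.72% of the strongest 1% per kb, so it was also frequent among the densest peaks although its median per kb was not higher. Chromosome X was at the other end, with a median WT signal of 286 over 257 peaks, a median width of 723 bp and 409.9 per kb. Chromosome 2 was not the only one with strong peaks close together. On chromosome 17, which held 5.20% of all peaks, 3 of the strongest 20 lay between 82888651 and 83087214 bp, at QTGAL, TBCD and METRNL.

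At the low end, the lowest values above 0 were 0.637 at 1.07 kb from MPC1, a mitochondrial pyruvate carrier subunit, and 2.63 at 60.0 kb from ANO1. Next were 6.11 at 63.7 kb from E2F7, 7.41 at 4.35 kb from ACER2 and 11.4 at the promoter of RCE1. The peak named by E2F7 had a promoter label, 77 bp from a start by the authors' distance. The 2 peaks at 0 lay in an intron of CERS6 and at the 3′ end of AMPD3. All of these are peaks whose names in the list begin with deltaC, the C-terminally truncated form of the protein. There were 877 such peaks, with a median WT signal of 149 and 236 per kb, against 379 and 399.9 in the 28971 peaks named WT.

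WT signal per peak was highest in the enhancer class and lowest in the class called others. Medians were 419.8 in 5257 enhancer peaks (quartiles 282 and 645), 393 in 10363 promoter peaks (272 and 579) and 341 in 14228 others (244 and 503). The share above the median of all peaks was 57.7% (56.4 to 59.1) for enhancer, 54.3% (53.4 to 55.3) for promoter and 44.0% (43.2 to 44.8) for others. Widths differed too, with medians of 1023, 1059 and 841 bp. Per kb the order turned, with others at 410.2, enhancer at 405 and promoter lowest at 370.4. Per kb, 42.8% (41.9 to 43.8) of promoter peaks were above the median of all peaks, against 54.3% (53.5 to 55.1) of others. The quartile ranges of the 3 classes overlapped widely by either measure.

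**Figure D1:**
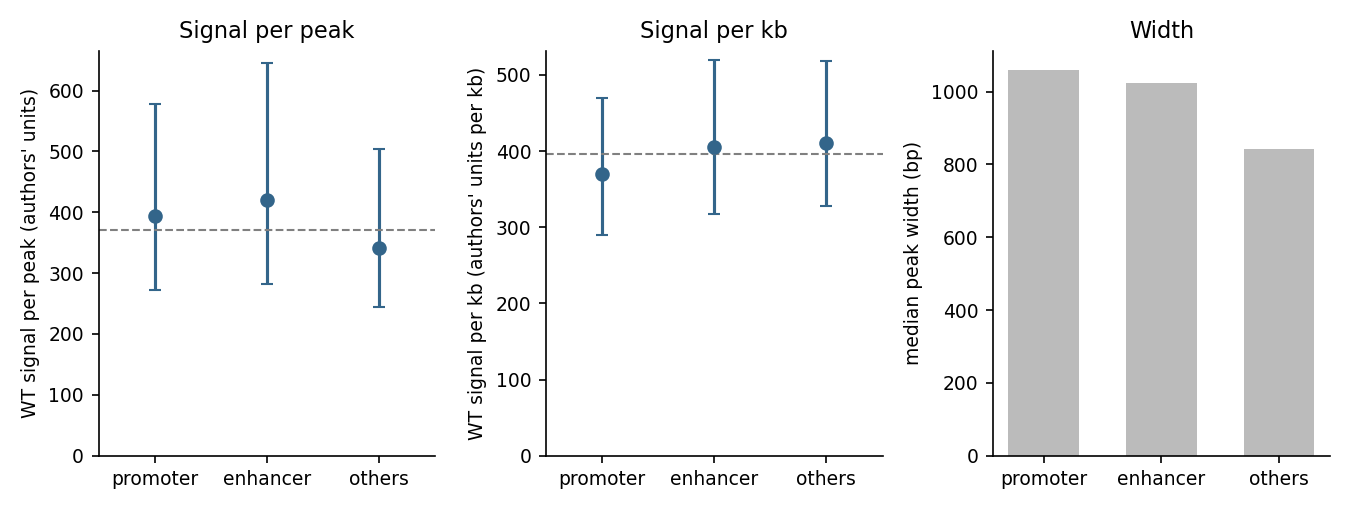
WT signal per peak, WT signal per kb (both in the authors' units) and peak width in bp for the 3 location classes; points are medians, bars the quartiles over peaks, the dashed line the median of all peaks and the grey columns median widths. Promoter peaks sit above the dashed line per peak (393 against 371) and below it per kb (370.4 against 396).

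Comparing peaks of like width gave the same turn. Within each of 10 groups of equal size by width, the promoter median WT signal was below that of others in 10 of 10 and below that of enhancer in 10 of 10, with ratios of promoter over others from 0.846 to 0.950. Enhancer peaks were above others in 3 of the 10 width groups. At a given width, promoter peaks therefore had less signal than both other classes, although their median over all widths was above that of others. When peaks were grouped by H3K4me2 fold instead, enhancer was above others in 10 of 10 groups per peak (ratios 1.08 to 1.22), and promoter was above others in 5 and below in 5. Per kb, enhancer was below others in 8 of these 10 groups and promoter was below others in 10 of 10.

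The annotation column gave the same picture in finer terms. Per peak, the 5601 peaks annotated promoter-TSS had a median WT signal of 408 and the 595 in a 5′ UTR had 406. Exons (354), introns (363), intergenic sequence (367) and transcription end sites (356) were lower, and LTR elements were lowest at 337. Per kb, the highest medians were those of DNA transposons (427), intergenic peaks (417.5), LTR elements (417) and LINEs (412), and the lowest those of CpG islands (341) and exons (347). SINEs lay below these 3 kinds of repeat, with 385 per kb and 47.2% of 1557 peaks above the median (44.7 to 49.7), against 56.9% of 1805 LTR peaks (54.6 to 59.2). The 208 peaks in other repeats were lower still, at 362 per kb and 42.3% (35.8 to 49.1). Within the enhancer class, intergenic peaks had a median of 449.9 per peak and 422 per kb, above the CpG-island enhancer peaks at 354 and 361. Intergenic peaks of the class others were at 352 per peak and 417.5 per kb.

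WT signal rose steadily with width. In the narrowest of 10 width groups (median 472 bp) the median WT signal was 182, in the widest (median 2052 bp) it was 815, a ratio of 4.47 for a ratio in width of 4.35. Of the widest, 98.6% were above the median of all peaks, and of the narrowest, 2.10%. Per kb the medians of the 10 groups stayed between 376 and 409, with the lowest in the widest group. The quartile ranges per kb of the 10 groups overlapped throughout.

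WT signal also rose with the H3K4me2 mark at the same site, and again with width. A peak of the authors' H3K4me2 list overlapped 29519 of the MTBP peaks by at least 1 bp. The median WT signal was 265 in the lowest of 10 groups by H3K4me2 fold (median fold 8.74) and 454 in the highest (median fold 46.6), a ratio of 1.71. Width rose by a ratio of 1.66, from 707.5 to 1175 bp, and signal per kb was 384 in the lowest group and 386 in the highest. Over these 29519 peaks rho with H3K4me2 fold was 0.28 for WT signal, 0.34 for width and 0.01 for signal per kb. Within the classes, rho between signal per kb and fold was 0.11 for enhancer, 0.09 for others and -0.03 for promoter. The 329 MTBP peaks with no listed H3K4me2 peak were weak, at a median of 189.9 per peak and 323 per kb with a width of 593 bp, and 6.08% of them were above the median of all peaks.

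**Figure D2:**
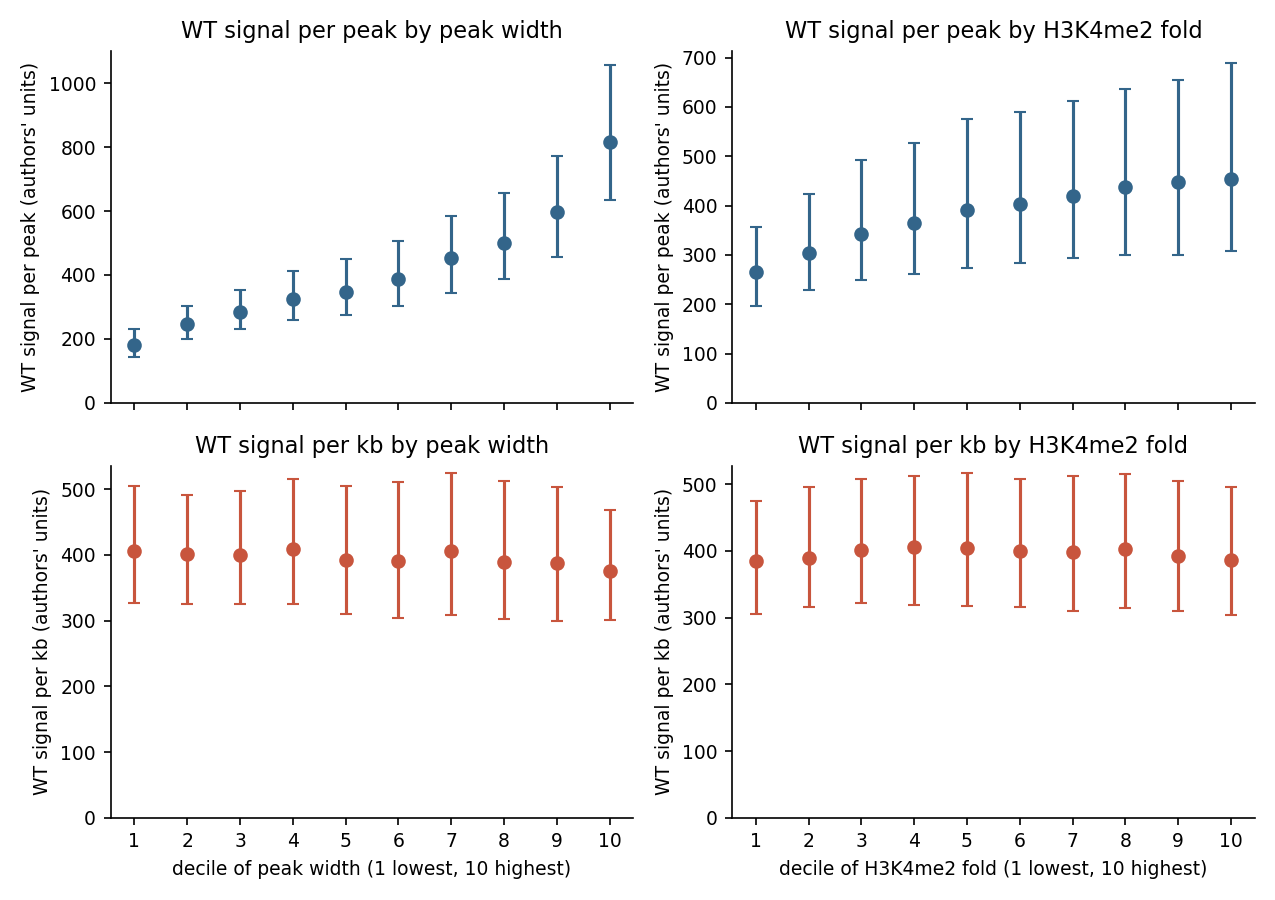
Median WT signal per peak (upper panels) and per kb (lower panels), in the authors' units, in 10 groups of equal size by peak width (left) and by H3K4me2 fold (right); bars are quartiles over peaks. Per peak the medians rise from 182 to 815 by width and from 265 to 454 by fold, while per kb they stay between 376 and 409 by width and between 384 and 406 by fold.

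Near start sites, more signal per peak again went with wider peaks. Within 1 kb of a start, by the authors' distance from the peak's centre, 8986 peaks had a median of 403, against 356 for 20862 peaks further away. Per kb the medians were 370.2 and 407. Per kb, the median was 378 within 100 bp and lower, at 365, between 100 bp and 1 kb. Beyond 1 kb it rose with distance, to 394 at 1 to 10 kb, 413 at 10 to 100 kb and 428 beyond 100 kb. The 2 sides of the start differed: peaks centred 250 to 500 bp upstream had 390.5 per kb at a width of 1133 bp, and those 250 to 500 bp downstream had 328 per kb at 1329.5 bp. Of the former 48.7% (45.5 to 51.9) were above the median per kb, of the latter 30.9% (27.9 to 34.1).

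Summits, the points of highest signal within peaks, were few at the start site itself and more frequent on both sides of it. Around 22012 protein-coding start sites of 15712 genes, 6263 MTBP summits lay within 1 kb, and they formed 2 groups. In bins of 25 bp, the upstream group was highest 175 to 200 bp before the start, with 324 summits, and the downstream group 100 to 125 bp after it, with 482. Between them the lowest bin, 25 to 50 bp before the start, held 87. Of all 6263, 32.2% lay 100 to 300 bp upstream, 10.7% from 100 bp upstream to 50 bp downstream, and 30.4% 50 to 200 bp downstream. H3K4me2 summits around the same starts also fell into 2 groups with a dip at the start, but were spread wider, with 19.3% of 8686 in the upstream window and 12.2% in the downstream one.

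Over all 6263, upstream summits had the higher median, but not in every subset. The median WT signal was 418 for summits 100 to 300 bp upstream (quartiles 298 and 593) and 393 for those 50 to 200 bp downstream (276 and 560.2), with 385 and 367 per kb. At the 3601 summits near starts with no other listed start within 1 kb, the shares were 34.7% upstream and 26.4% downstream, and the medians 397 and 356. In the strongest 1566 of the 6263 peaks, 60.8% of summits lay upstream of the start, and in the weakest 1566, 47.8%. Within the strongest 1566 the medians in the same windows were 751 upstream and 759.5 downstream per peak, and 480.2 and 506 per kb. Within the weakest 1566 they were 223 and 228 per peak. Among peaks of at least the median score they were 538 and 519.8 per peak, but 440.8 and 445.5 per kb.

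**Figure D3:**
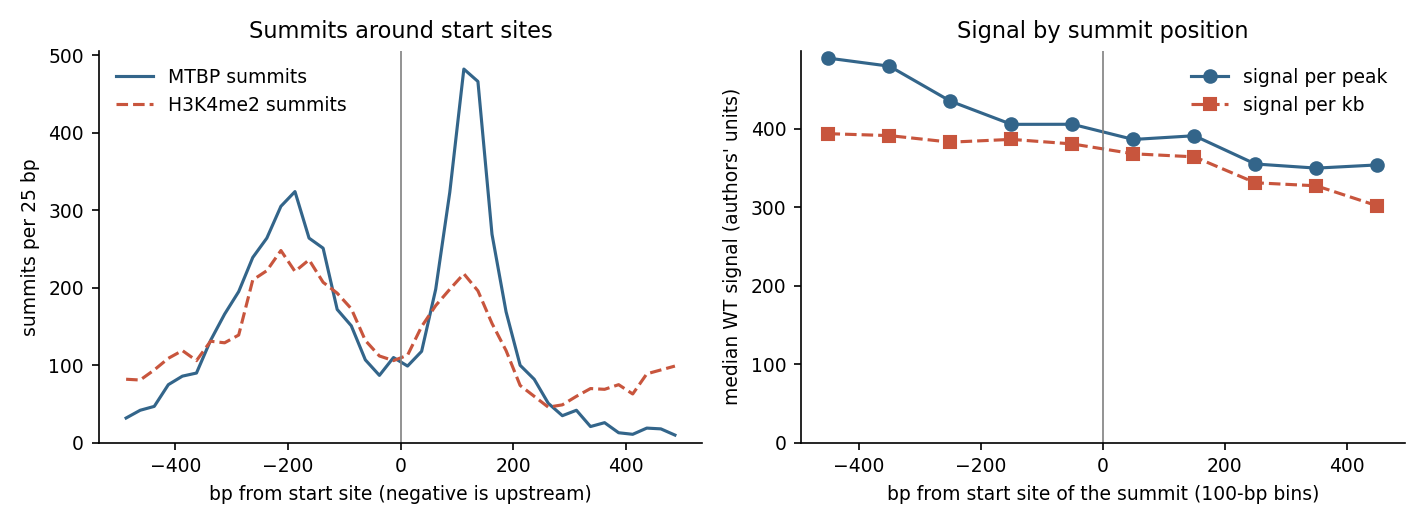
Left, numbers of MTBP summits (solid) and H3K4me2 summits (dashed) per 25 bp against distance in bp from a protein-coding start site; right, median WT signal per peak and per kb in the authors' units by summit position in bins of 100 bp. MTBP summits are most frequent 175 to 200 bp upstream (324) and 100 to 125 bp downstream (482), and both medians are higher upstream than downstream of the start.

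Short sequence motifs were counted in the 300 bases around each of the 22012 starts, 250 before and 50 after it, on both strands. An MTBP summit lay within 300 bp of 4866 of them. CCAAT, the letters bound by the factor NF-Y, was in 41.2% of the windows with a summit, 32.8% of those without and 34.7% of all. GGGCGG, the GC box bound by SP1, was in 72.6%, 51.6% and 56.3%. CCGGAA, a form of the ETS site, was in 34.5%, 17.3% and 21.1%, and TATAAA in 4.64%, 10.9% and 9.49%. The E-box CACGTG was in 10.9% of windows with a summit and 7.59% without, TGACGTCA in 3.51% and 1.89%, and TGACTCA, the AP-1 site, in 3.60% and 4.14%. GC content was 64.6% in windows with a summit and 59.9% in those without, and its part in these shares was not tested. A match is a run of letters and shows no binding by the factor named.

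Among the windows with a summit, CCAAT was more frequent where the signal per kb was higher. The stretches upstream of PAIP2B, DMAC2 and MYL11 printed above were picked from the top of this ranking and are not separate evidence. From the lowest to the highest of 5 groups by signal per kb the CCAAT share was 35.3% (32.4 to 38.4), 38.2%, 40.7%, 41.4% and 50.6% (47.4 to 53.7). GC content fell from 66.3% to 62.9% along these groups and the share with the GC box from 74.8% to 70.8%. The windows were also split at the median GC content, 65%, and each part was cut anew into 5 groups by signal per kb. At or above that content the CCAAT share was 28.4% in the lowest of these groups and 41.3% in the highest. Below it the shares were 43.7% and 57.0%. By WT signal per peak the share ran from 35.3% to 45.0%, and by width it was 40.4% in the narrowest and 40.3% in the widest group. In the lowest and highest groups per kb, the ETS letters were in 32.2% and 33.2%, the E-box in 9.34% and 10.4%, and the AP-1 letters in 2.57% and 3.91%.

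**Figure D4:**
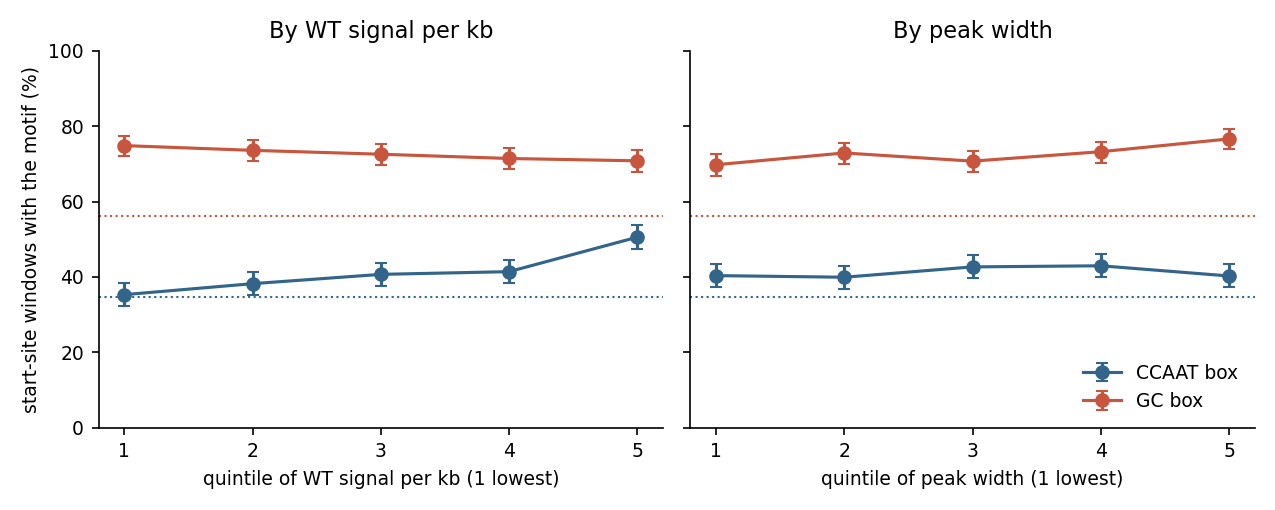
Percent of start-site windows with a CCAAT box or a GC box in 5 groups of equal size by WT signal per kb (left) and by peak width (right), for windows with an MTBP summit; bars are 95% Wilson intervals and dotted lines the share over all 22012 windows. The CCAAT share is 35.3% in the lowest and 50.6% in the highest group per kb, and 40.4% and 40.3% by width.

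Within peaks, the summit was most often near the centre. It lay within 0.1 of the width from the centre in 39.3% of peaks, from 0.1 to 0.2 in 32.2%, and beyond 0.4 in 0.489%. Peaks with a central summit were the densest, with a median of 421 per kb, and the median fell to 399.7, 376, 323 and 278 as the summit moved out. Per peak the order was not steady, with medians of 385.4 in the central group, 361, 349, 385.5 and 580.3 in the outermost, whose 146 peaks had a median width of 1934 bp. In the 29519 peaks with an overlapping H3K4me2 peak, the summit of the one with the highest fold was taken. The MTBP summit lay a median of 211 bp from it, and 26.9% lay within 50 bp. That share was 31.2% for others, 29.5% for enhancer and 19.8% for promoter. In bins of 50 bp, 3988 and 3895 of these H3K4me2 summits lay on either side within 50 bp. The counts were 813 and 823 at 100 to 150 bp, and 1022 and 996 at 250 to 300 bp.

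The strength of a peak said little about that of the next one. The nearest other summit was a median of 13487 bp away, from 535 bp to 8.27 Mb at a peak on X (chrX:86370060-86370518, WT signal 304). The median WT signal was 336 for 2479 peaks with a neighbour within 2 kb, 399 at 2 to 5 kb, 382 at 5 to 20 kb, 365 at 20 to 100 kb and 344 beyond 100 kb. Per kb it rose from 372 to 386, 395, 402 and 417 along the same bins. Between adjacent peaks rho of WT signal was between -0.02 and 0.03 over the 5 bins of spacing. The stronger of 2 neighbours within 2 kb had a median of 1.74 times the signal of the weaker, and beyond 100 kb 1.66 times.

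Peaks linked by gaps of at most 5 kb formed 3438 runs holding 7800 peaks, and 22048 peaks stood alone. The longest runs had 8 peaks, and there were 3 of them. On chromosome 12 the run at GPRC5A, a receptor of epithelial cells (chr12:12869955-12891888), had WT signals of 349.8, 1226, 233, 131, 727, 581, 118 and 549.5 in order. In it weak and strong peaks were mixed within 21.9 kb. On chromosome 17 the run at chr17:65278244-65298786 was more even, with values from 218 to 598, and the run at chr17:72407138-72431346 ran from 235 to 986. Runs of 7 included AHNAK and EEF1G (chr11:62538874-62561402, 313 to 980.2) and CDX2, the intestinal transcription factor (chr13:27952671-27971942, 261 to 746). The 831 peaks in runs of 4 or more had a median WT signal of 403 and 364 per kb, against 369.9 and 400.3 for peaks standing alone, and 38.5% against 14.9% were enhancer peaks.

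The study mapped early replication with EdU, a labelled nucleotide, in cells released from G1 with hydroxyurea and aphidicolin, and the authors listed initiation zones from it. Which libraries gave the zones is not given in the sources used here. Of all MTBP peaks 23.0% overlapped a zone, with 34.5% of enhancer, 27.3% of promoter and 15.6% of others. By name it was 10.5% of the 877 deltaC peaks, which had low WT signal, and 23.4% of the 28971 WT peaks. The shares by strength that follow were not repeated without the deltaC peaks. By WT signal the share was 21.0% (20.0 to 22.1) in the weakest of 5 groups and 27.3% (26.2 to 28.4) in the strongest. By signal per kb the direction turned, from 26.3% (25.2 to 27.5) to 21.8% (20.8 to 22.9), and by width the share rose from 17.8% (16.9 to 18.8) to 29.6% (28.4 to 30.8). With the summit required to lie inside the zone the shares were 20.7% and 26.7% by WT signal and 17.7% and 28.8% by width. Within the promoter class the share was 25.8% and 29.4% in the weakest and strongest group per peak, and within enhancer 34.3% and 38.1%, with intervals that overlapped in both classes. Within others it was 14.8% (13.6 to 16.2) and 18.3% (16.9 to 19.7), where they did not. Zone shares differed widely with crowding, where 51.7% of peaks in runs of 4 or more overlapped a zone, against 19.4% of those standing alone and 0.972% of those over 100 kb from another summit. Peaks of 1 run can share a zone and are then not separate observations.

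**Figure D5:**
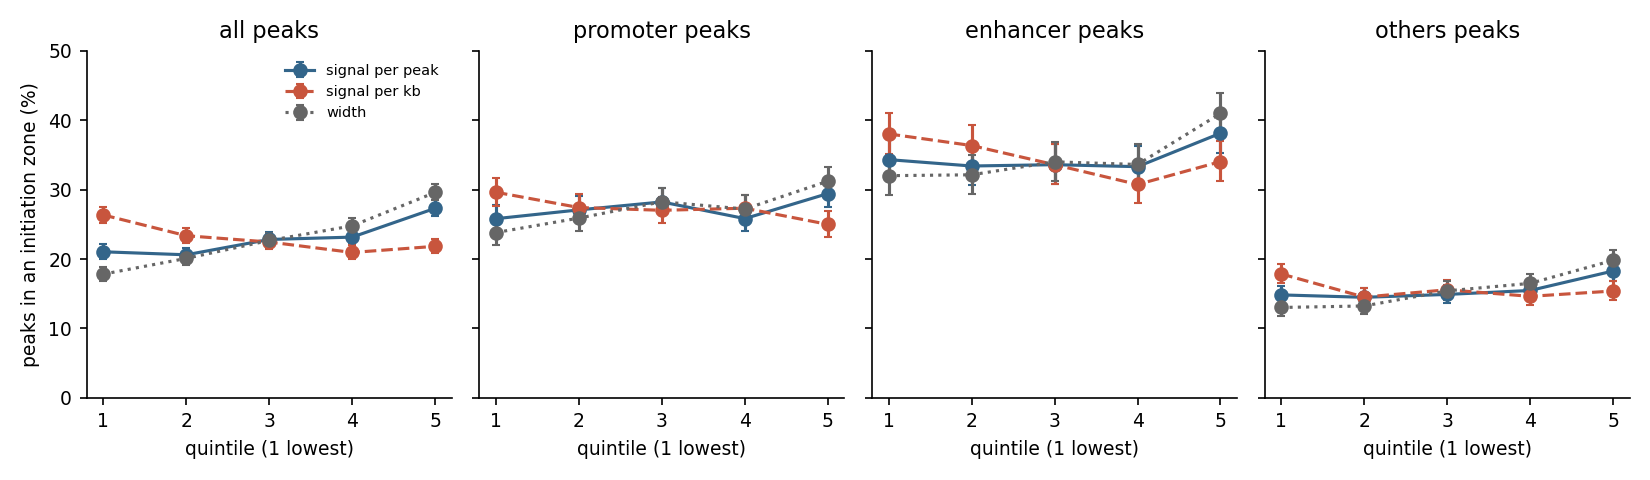
Percent of MTBP peaks that overlap an initiation zone in 5 groups of equal size by WT signal per peak, WT signal per kb and width, for all peaks and for each class; bars are 95% Wilson intervals. Over all peaks the share goes from 21.0% to 27.3% by signal per peak, from 26.3% to 21.8% per kb and from 17.8% to 29.6% by width.

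Over the protein-coding genes, 39.7% of 19974 had an MTBP summit within 1 kb of either end of the gene, with a median WT signal of 416 at the highest peak of each. Of the genes of replication initiation 27 of 34 (79.4%, 63.2 to 89.7) had a peak, at a median of 374 per peak, below that of all genes with a peak, and 403 per kb, above their 373. Highest among them were CDC7, the kinase that activates the MCM helicase (1115), and ORC2 (863) and ORC6 (826), subunits of the origin recognition complex. MTBP itself had a peak of 408 and TICRR, its partner Treslin, of 370.5. TOPBP1, which binds that complex, was the lowest of the list with 215. The genes that encode the initiation machinery were looked at here for peaks at their ends, and no origin was mapped at them.

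Transcription factors and Wnt pathway genes of the colorectal lineage had a peak in 16 of 24 (66.7%, 46.7 to 82.0), with a median of 665. AXIN2, a feedback inhibitor of Wnt signalling, had 1873, ASCL2, a stem cell factor, had 1132 and ELF3, an epithelial ETS factor, had 1059. Per kb the list's median was 389.7, against 373 over all genes with a peak. ASCL2 had 284 per kb. AP-1 and immediate early genes had a peak in 10 of 16 (62.5%, 38.6 to 81.5), an interval that includes the 39.7% of all protein-coding genes. Their medians were 652 per peak and 341 per kb, led by JUN (1412), EGR1 (1354) and MYC (873). Those without were FOSL1, FOSL2, EGR3, ATF3, KLF6 and DUSP1. Housekeeping genes had a peak in 11 of 15 (73.3%, 48.0 to 89.1). Their medians were 495 per peak and 332 per kb, with PPIA at 915 and GAPDH at 829.

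Markers of colorectal epithelium had a peak in 11 of 19 (57.9%, 36.3 to 76.9), beside 39.7% of all protein-coding genes. Highest were CLDN4, a tight junction protein (1375), ELF3 (1059) and LGR5, a stem cell receptor (928). KRT18, KRT19, CDH1, VIL1, CDX1, GPA33, CEACAM5 and KLF5 had none within 1 kb of an end, and KRT20 had a peak of only 25.1. Within 5 kb, 19 of 19 had one, where 51.5% of all protein-coding genes did. The strong KRT8 peak had a promoter label and lay 115 bp from a start by the authors' distance. It is not within 1 kb of an end of the gene's longest form, where the value was 237. Of the markers of other cell types, 0 of 7 hepatocyte genes (ALB, APOA1, APOB, TTR, SERPINA1, F9 and CYP3A4) and 0 of 6 muscle genes (MYOD1, MYH2, ACTA1, MYOG, DES and TNNT3) had a peak. The intervals were 0 to 35.4% for hepatocyte and 0 to 39.0% for muscle. Of 8 blood genes CD3E had one (577), a share of 12.5% (2.24 to 47.1). Of 6 neuron genes RBFOX3 (567), SNAP25 (497.5) and GRIN1 (268) had one, and NEUROD1, SYT1 and STMN2 had none. The neuron share was 50% (18.8 to 81.2). The epithelium, blood and neuron intervals include the 39.7% of all protein-coding genes. All of these lists were chosen with earlier results of the data known, and their counts were not tested.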

How the data were processed

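The members and gene lists were chosen with earlier results of these data known. Per the labels, CUT&RUN with a FLAG antibody was run in 3 libraries each of full-length MTBP and untagged cells. Per the submitters' processing notes, Trim Galore, Bowtie2, MACS2 and HOMER were used with build hg38; of versions, parameters and pooling the sources used here say nothing. The authors deposited 1 signal value per peak for the WT line, of unstated scale, and a peak score, also of unstated scale. The H3K4me2 list gives the authors' fold over background (a ratio), taken as the highest among peaks overlapping by 1 bp. All values are the authors' own, and were used to describe and rank peaks within a list. The signal column of the truncated form was left aside, as 1 unused column of values for a group.

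Width is end minus start, and signal per kb is WT signal over width. Spacing is from summit to nearest summit. Starts came from RefSeq promoters (GRCh38.p14, 22012 starts of 15712 symbols, with chromosome 8 not used there), and accessions in the annotation matched for 16076 of 16225 peaks. Named are the 20 strongest peaks, the 5 strongest of each class, the 5 lowest above 0 and those at 0, and the 3 strongest genes of each list. Some members of the housekeeping and blood lists are not reported here by name. Because the table of starts is not complete, peaks were named by the nearest end of a protein-coding gene and not by the nearest start as planned, unless the authors' annotation placed them in a gene. Shares have 95% Wilson intervals. No test between groups was possible with 1 value per peak. Scripts (Python 3.11.15, pandas 2.3.3, numpy 2.4.6, scipy 1.17.1) were tested on simulated data. Alternatives were signal per kb, peaks named WT only, peaks of at least the median score, leaving out chromosome 2, and other windows and overlaps. Those on summits around starts, zones and CCAAT, and signal per kb for width and summit offset, were added after the data were seen.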

Additional observations from a re-analysis of the deposited data

How the results depend on the processing

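Of 71 alternatives, 42 kept their direction and stayed close, 19 moved and 10 reversed. Taken per kb of width, the share above the median of all peaks reversed for promoter (42.8%), promoter-TSS (44.8%), intergenic (56.5%), within 1 kb of a start (42.7%), a neighbour within 5 kb (46.1%), the highest H3K4me2 fold (47.3%) and the widest peaks (43.9%), and moved for enhancer (52.4%) and for central summits (57.0%). Before the change the share was 49.4% for intergenic and 50.4% for a neighbour within 5 kb, so these had almost no direction to reverse. The gap in zone share between the strongest and weakest of 5 groups reversed to -4.52 points, from 6.26. The gap in CCAAT share, 15.2 points per kb, was 9.70 by WT signal and -0.10 by width, which counted as reversed but is close to no gap. Dividing by width is the change in these, while the scale of the signal is unknown. With only peaks of at least the median score the shares were 53.2% for promoter, 54.6% for promoter-TSS, 54.1% within 1 kb, 53.5% with a neighbour within 5 kb (52.0% when measured edge to edge), 62.1% for the highest fold, and 49.2% for central summits, which reversed, and 34.6% for summits 100 to 300 bp upstream. With these peaks 14 replication initiation genes, 5 housekeeping genes and 1 neuron gene had a peak, and 22.4% of all protein-coding genes did. Within 2 kb and 5 kb of a start the share was 54.3% and 52.5%. With a 5 kb window 16 AP-1 and 19 epithelium genes had a peak, where 51.5% of all protein-coding genes did. At lone starts 34.7% of summits were upstream and 26.4% downstream. The cause of the other moves was not tested. Leaving out chromosome 2, or keeping only peaks named WT, changed no direction in the results where these were tried. Neither was tried for the gene lists, the zone shares or the CCAAT shares.

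No paired analysis was possible because there is 1 value per peak for all libraries, and for the same reason replicates could not be left out in turn. Library depth is unknown, so no limit from depth can be given.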
